A study of Mus musculus with 9 samples.

Results

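Intron reads were compared between mouse embryonic stem cells lysed right after KH-CB19, a small-molecule Clk kinase inhibitor, was added and cells lysed right after its solvent dimethyl sulfoxide (DMSO) was added. The comparison covers every intron for which the authors' deposited table gave observed and expected mean reads in both groups at 0 h. These were 18080 of the 22228 introns in the table (81.3%), and they lay in 6476 of 7016 genes. They include 3422 introns with values at 2 h, the ones that the authors classed as detained, and 14658 without.

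The cells were v6.5, a mouse embryonic stem cell line grown on gelatin in serum with the cytokine LIF, and all groups were of this line. One group received KH-CB19 dissolved in DMSO and the other an equal volume of DMSO, and at 0 h the medium was taken off and the cells lysed straight away. The labels write the final KH-CB19 concentration as 10 mM, which is printed here as they give it. Polyadenylated RNA was sequenced in paired ends from strand-specific libraries, with 2 independent biological replicates in each group and time. RNA integrity numbers were 9.1 and 9.3 in the DMSO libraries at 0 h and 9.4 and 9.1 in the KH-CB19 libraries at 0 h. The table held 1 mean for the 2 libraries of a group, so no spread between libraries stands beside any value and no test between the groups was made. Of 12 marker genes of embryonic stem cells, 11 had introns with reads in the table. Their introns with values in both groups summed to 7457 reads in DMSO and 5301.5 in KH-CB19. Of 16 fibroblast markers only Fn1 and Spp1 were there, and of 27 markers of germ layers and trophoblast only Dnmt3b and Tfap2c. The same sums were 3328.5 and 2615.5 for Fn1 and Spp1, and 477.5 and 397.5 for Dnmt3b and Tfap2c. That a marker had no introns in the table does not show that the gene was not expressed. Fn1 and Dnmt3b are also made by embryonic stem cells.

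Clk kinases add phosphate to SR proteins, splicing factors rich in arginine and serine that help the spliceosome recognise exons, and the phosphate controls where SR proteins sit in the nucleus and when they act. Detained introns are introns that stay in otherwise spliced, polyadenylated transcripts in the nucleus, and they are common in genes for splicing factors, the Clk genes among them. The 0 h groups differ in what was added but had next to no time with it, so they set the baseline against which intron reads at 2 h can be read.

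At 0 h most of the difference in intron reads between the groups was a common scale. Observed reads over the 18080 introns summed to 1241286.5 in DMSO and 995181.5 in KH-CB19, a ratio of 0.802, and expected reads to 898675.5 and 718582, a ratio of 0.800. The median intron had 31 observed reads in DMSO and 25 in KH-CB19. Library size and the amount of intron RNA cannot be told apart in such sums. Each measure was therefore taken as a log2 ratio of KH-CB19 to DMSO, centred on its own median. The uncentred medians were −0.32 for observed reads, −0.33 for expected reads and 0.00 for the difference of the 2 ratios, called here observed relative to expected. All log2 values below are centred unless they are the authors'.

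Few introns were far from the median. For observed reads, 92.8% of introns lay within 1.5-fold of it and the SD across introns was 0.32. At least 2-fold above were 52 introns (0.288%), and at least 2-fold below were 23 (0.127%). For expected reads the SD was 0.20, with 8 introns at least 2-fold above (0.0442%) and 0 below (0%). For observed relative to expected the SD was 0.28, with 29 introns above (0.16%) and 22 below (0.122%). These shares are the background for every count given further on. The 75 introns past 2-fold in observed reads lay in 73 genes, and 23 of them were detained.

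**Figure D1:**
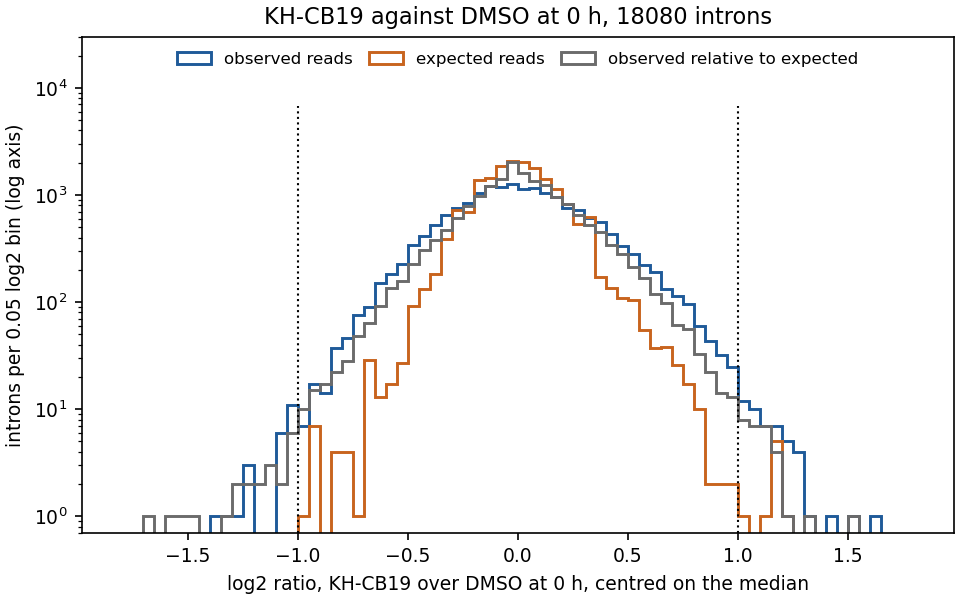
Histogram of the centred log2 ratio of KH-CB19 to DMSO at 0 h for observed reads, expected reads and observed relative to expected, as introns per bin on a log axis; the dotted lines mark 2-fold. All 3 distributions are narrow, and 52 and 23 of 18080 introns lie outside the lines for observed reads.

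The spread had to be read against depth. Among the 5827 introns with a mean under 20 reads, the SD of the observed ratio was 0.35, and counting error alone gave 0.38. Between 100 and 200 reads the values were 0.23 and 0.13. Among the 197 introns with at least 500 reads the SD was 0.38 against 0.05 from counting, 7.52 times as large. The deepest introns thus differed between the groups by more than read counting gives. Between 20 and 50 reads the SD was 0.32 against 0.27 from counting. Under 20 reads it was no larger than counting gives, but the counting value leaves out the minimum of about 10 reads. The 2 values cannot be compared there. Of the 52 introns at least 2-fold above the median, 23 had a mean under 20 reads, and of the 23 below, 0 did. The authors gave a word for low coverage in place of values under about 10 reads, and this removes shallow introns with few reads in 1 group. It limits which ratios can occur under 20 reads, and so both the spread and the counts of 23 and 0 there. A value in DMSO alone was given for 3488 introns, with a median of 12.5 observed reads, and one in KH-CB19 alone for 660, with a median of 11.

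**Figure D2:**
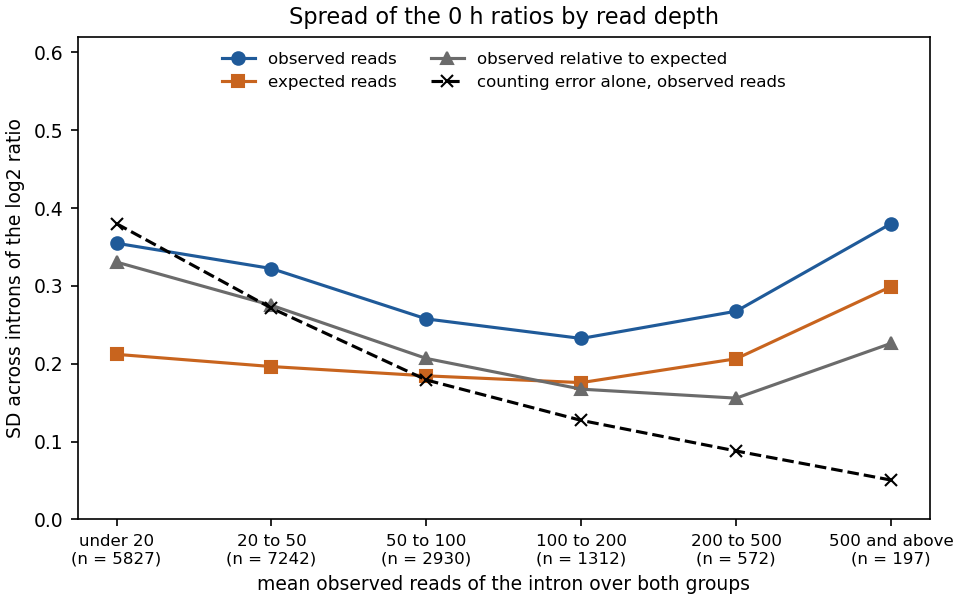
SD across introns of the centred log2 ratio of KH-CB19 to DMSO at 0 h, for 6 classes of mean observed reads per intron, with the SD that counting error alone gives for observed reads as a dashed line. The line for observed reads meets the dashed line under 20 reads (0.35 and 0.38) and stands far above it from 500 reads (0.38 and 0.05).

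The expected ratio was close to a property of the gene. Over the 2784 genes with at least 3 introns, the SD within a gene was 0.04 for expected reads and that of gene means was 0.18. For observed reads the SD within a gene was 0.31. The ratio of a gene's summed observed reads matched its expected ratio with a median gap of 0.02, so the deepest intron of a gene weighs heavily on the expected reads of all its introns. In 340 introns, 333 of them the sole intron of their gene, expected and observed reads were equal in both groups, and their observed relative to expected ratio carries no information.

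The highest observed ratio belonged to Taf15, an RNA-binding protein of the FET family. Its intron 49 (132 bp, chromosome 11 from 83318381 to 83318512 on mm9, plus strand; intron numbers are the table's own) had 826.5 reads in DMSO and 2065 in KH-CB19. That is 3.12-fold above the median, a log2 ratio of 1.64 with a 95% counting interval of 1.56 to 1.73. Its neighbour, intron 35 (120 bp, between coding exons), had 408.5 and 885.5 reads, a log2 ratio of 1.44 (1.32 to 1.56). Both are detained. The other 9 introns of Taf15 did not share this and lay between −0.82 and 0.11. Intron 12, a detained intron of 8315 bp, had 1408 reads in DMSO and 927 in KH-CB19 (−0.28). All 11 introns had an expected ratio between 0.73 and 0.76, so 7 of the 9 were at least 2-fold below the median in observed relative to expected. The 2 high introns lie next to each other at the 3′ side of the gene, and the observed ratios of the rest were all within 2-fold of the median.

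Hirip3, which encodes a partner of the histone chaperone HIRA, showed the same form. Intron 6 (108 bp, detained) had 205 reads in DMSO and 466.5 in KH-CB19, a log2 ratio of 1.51 (counting interval 1.34 to 1.68). Introns 3 and 5 had 54 and 51 reads and 46 and 29.5 reads, with log2 ratios of 0.24 and −0.32. The expected ratio was between 1.18 and 1.19 in all 3, so introns 3 and 5 stood at −0.94 and −1.49 in the relative measure.

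Ncl, the gene of the nucleolar protein nucleolin, was split in a similar way. Intron 7 (326 bp) held 87.0% of the gene's DMSO reads, with 3342.5 in DMSO and 4762 in KH-CB19, a log2 ratio of 0.83. Intron 2 (771 bp) had 98 and 190.5 reads, a log2 ratio of 1.28 (1.03 to 1.54). The other 7 introns lay between −0.91 and −0.03. Intron 24 had 118.5 reads in DMSO and 50.5 in KH-CB19, a log2 ratio of −0.91 (−1.26 to −0.57). With an expected ratio of 0.77, intron 24 was the lowest intron of all in observed relative to expected, at −1.67.

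Ddx5, an RNA helicase that acts in splicing, was the opposite case, since its expected ratio was near the median (0.02). Intron 2 (322 bp, detained, chromosome 11 from 106649774 to 106650095 on mm9, minus strand) had 365.5 reads in DMSO and 669.5 in KH-CB19, a log2 ratio of 1.20 (1.06 to 1.33). Its observed relative to expected ratio was 1.19, the highest among introns with at least 50 observed and 10 expected reads. The other 7 introns lay between −0.71 and −0.12, among them the deep detained intron 19 with 2665 and 1866.5 reads (−0.19).

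The rest of the 10 highest observed ratios, at a mean of at least 50 reads, ran from 1.07 to 1.24. They were intron 2 of Hyou1 (42.5 and 80.5 reads), a chaperone of the endoplasmic reticulum, and intron 2 of Timm13 (76.5 and 142.5), a chaperone of mitochondrial import. Intron 8 of Nucks1, a chromatin protein, had 64 and 115 reads. Intron 2 of Chchd10, a mitochondrial protein, had 147.5 and 262. Among ribosomal protein genes, intron 2 of Rps21 had 80.5 and 140.5 reads and intron 2 of Rpl36 had 111 and 186.5. Ribosomal protein genes have processed copies, the treatment of reads that match several places is not given in the sources used here, and its effect on intron reads was not tested. In Timm13, Rps21 and Rpl36 the expected ratio was high as well, between 0.72 and 1.18, and the relative measure between 0.05 and 0.41. Chchd10 has a single measured intron, whose expected reads equalled the observed ones. Of the highest expected ratios, that of Trh, the gene of thyrotropin-releasing hormone, was 1.02 and rests on 1 intron with 72.5 and 117 reads, observed and expected alike.

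At the same minimum of 50 reads, the lowest observed ratio was that of Eef1a1, the translation elongation factor that brings aminoacyl-tRNA to the ribosome. Its intron 9 (260 bp, chromosome 9 from 78327890 to 78328149 on mm9, minus strand) had 9129 reads in DMSO and 3026.5 in KH-CB19, a log2 ratio of −1.27 (counting interval −1.31 to −1.23). Intron 18 had 3165 and 1184 reads (−1.10) and intron 7 had 2054 and 913.5 (−0.85). Introns 2 and 13 were nearer to the median, with −0.21 and −0.07. The median over its 5 introns, −0.85, was the lowest of the 1798 genes with at least 4 introns, and its expected ratio of −0.93 was the lowest among introns with at least 50 observed and 10 expected reads. Eef1a1 also has processed copies, and the effect of reads that match several places was not tested.

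Short introns of other genes followed. Intron 15 of Ppp1ca (139 bp), the catalytic subunit of protein phosphatase 1, had 444.5 reads in DMSO and 151.5 in KH-CB19, a log2 ratio of −1.23 (−1.42 to −1.04). Intron 21 of Rpl4 (127 bp), a ribosomal protein gene, had 474.5 and 164.5 reads (−1.21). Intron 7 of C1qbp (198 bp, detained), a mitochondrial matrix protein, had 383 and 148 reads (−1.05). Intron 9 of Eef2 (169 bp, detained), the translocation factor of translation, had 432 and 170 (−1.02), while intron 14 of the same gene had 120.5 and 138.5 (0.52). As in Taf15, introns of Eef2 thus stood on both sides of the median. Low expected ratios after Eef1a1 were those of Ppp1ca (−0.82), C1qbp (−0.63) and 2 further genes. Intron 2 of Camk1d, a calmodulin-dependent kinase, is 82942 bp long and had 766.5 and 357.5 reads, with an observed ratio of −0.78 and an expected ratio of −0.75. Intron 5 of Chmp2a, a subunit of the ESCRT membrane machinery, had 138.5 and 71 reads (−0.64, expected −0.56).

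The other 5 of the 10 lowest had fewer reads. Intron 10 of Tcp1, a chaperonin subunit, had 73 reads in DMSO and 27.5 in KH-CB19 (−1.09, counting interval −1.56 to −0.63). Intron 25 of Atrx, a chromatin remodeller, is 5518 bp long and had 96 and 37 reads (−1.05, −1.46 to −0.66). Intron 24 of Ncl is described above. Intron 31 of Hnrnph1, a splicing regulator, had 86.5 and 38 reads (−0.86), and intron 15 of Picalm, an endocytic adaptor, 109.5 and 49 (−0.84).

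**Figure D3:**
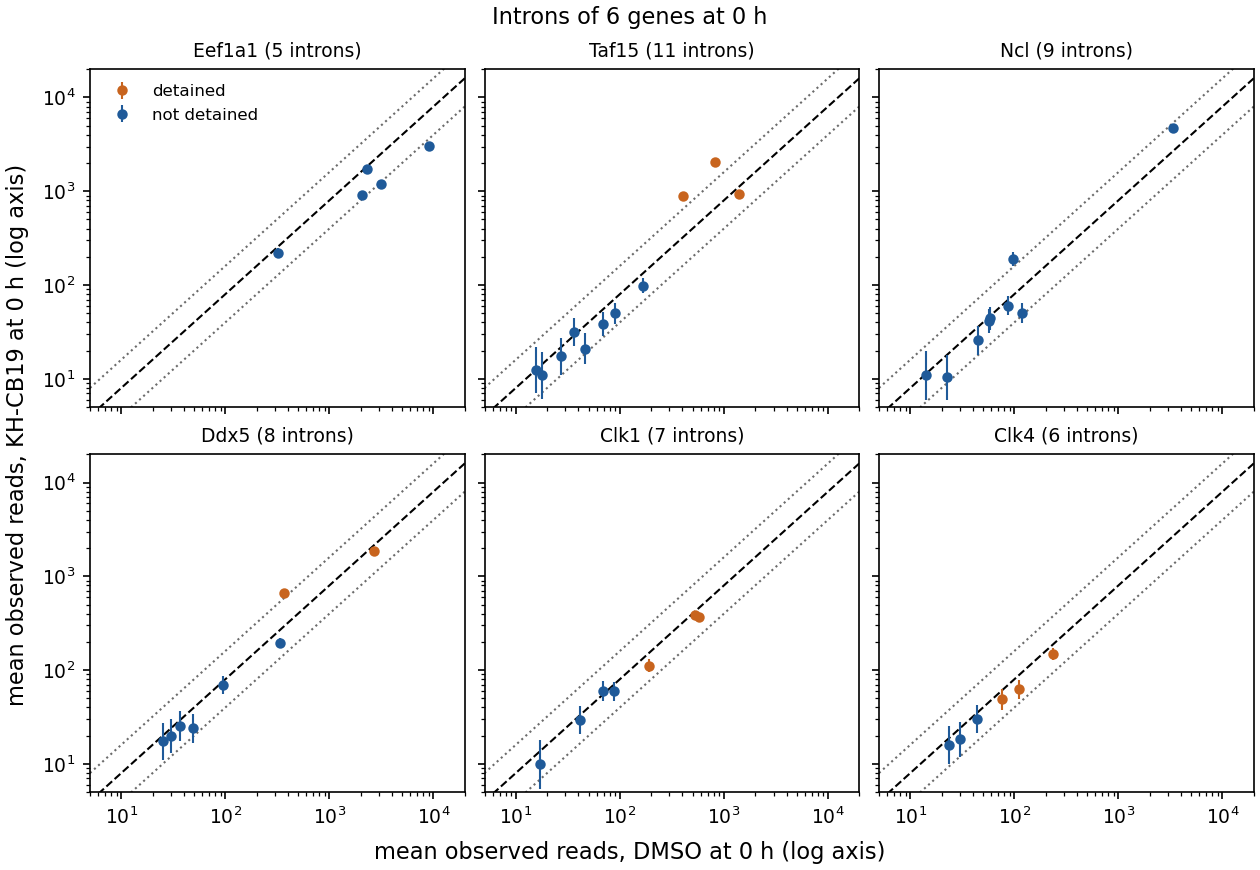
Mean observed reads of each intron of 6 genes in KH-CB19 against DMSO at 0 h, both on log axes, with 95% counting intervals on the KH-CB19 side; the dashed line is the median ratio over all introns and the dotted lines are 2-fold from it. Introns 35 and 49 of Taf15 and intron 2 of Ncl and of Ddx5 lie above the band, while the others of the same genes do not. In Eef1a1 2 introns lie below it, and all introns of Clk1 and Clk4 lie inside.

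In observed relative to expected, further high introns at the same minimum were intron 8 of Ppp1ca (1.07), intron 11 of Ppp4c (1.01), a protein phosphatase catalytic subunit, and intron 12 of Pcbp2 (1.00), a poly(C)-binding protein. Intron 10 of Phb2 (prohibitin), intron 13 of Eef1a1, intron 14 of Eef2, intron 2 of Rpl23 and intron 2 of Eif4g1, a scaffold of translation initiation, lay between 0.80 and 0.92. For intron 13 of Eef1a1 and intron 8 of Ppp1ca the observed ratios were only −0.07 and 0.24, and the expected ratios of −0.93 and −0.82 made up most of the measure. The low end held intron 9 of Hsp90ab1, a heat shock chaperone (2375.5 and 1145.5 observed reads, −0.99), and intron 30 of Kpnb1, an import receptor (85 and 42, −0.98). It also held intron 2 of Tsc22d1 (−0.96), intron 17 of St13 (−0.91), intron 10 of Ywhae (−0.91) and intron 5 of Actb (−0.76). For these introns of St13, Ywhae and Actb the observed ratios were only −0.38, −0.27 and −0.17. The expected ratios of 0.54, 0.65 and 0.60 made up most of the measure. The counting intervals of the observed ratios of St13 and Actb include the median. Hsp90ab1 and Actb have processed copies too, whose effect was not tested.

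Among whole genes with at least 4 introns, the lowest medians after Eef1a1 were those of Setd5 (−0.52), a chromatin protein, Hnrnph3 (−0.51) and Zfp207 (−0.51), a kinetochore protein. The highest were those of Srebf1 (0.64), the sterol response factor, Tspan14 (0.64), Ssbp4 (0.62) and Arvcf (0.61), a catenin. Apart from Eef1a1, these genes had 65 to 275 summed reads in DMSO, and their introns differed among themselves. The 6 introns of Setd5 ran from −0.71 to 0.11 and the 5 of Ssbp4 from −0.41 to 0.87.

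The targets of the inhibitor were next. None of the 18 introns of the 4 Clk genes was 2-fold from the median in any measure. Clk1 intron 5 (871 bp, detained, chromosome 1 from 58477056 to 58477926 on mm9, minus strand) had 579 reads in DMSO and 364.5 in KH-CB19, a log2 ratio of −0.35 (counting interval −0.48 to −0.21). Clk1 intron 7 had 191 and 112 reads (−0.45, −0.69 to −0.21) and intron 11 had 532 and 385 (−0.14, −0.28 to −0.01). Of the 7 introns of Clk1, 6 were below the median, and the expected ratio was −0.24 to −0.23 throughout. The counting intervals of introns 9, 15, 16 and 17 include the median. Relative to expectation, the detained introns 5, 7 and 11 stood at −0.10, −0.20 and 0.10, within 1.5-fold of the median.

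In Clk4 every intron was below the median. The 6 introns lay between −0.51 and −0.23. Intron 7 had 234 and 150.5 reads (−0.31, −0.53 to −0.10) and intron 10 had 111 and 62.5 (−0.51, −0.83 to −0.18). The counting intervals of introns 3, 6, 11 and 16 include the median. The expected ratio was −0.34 to −0.32, and the relative measure −0.17 to 0.11. Clk2 and Clk3 were not low: the 4 introns of Clk2 ran from −0.16 to 0.21, and intron 3 of Clk3 had 143 and 118.5 reads (0.05). Set beside these, the authors' deposited table gave log2 ratios at 2 h of −3.56 for Clk1 intron 5, −3.44 for Clk1 intron 7, −2.76 for Clk4 intron 7 and −2.87 for Clk4 intron 10. All 4 passed an adjusted p of 0.05 there, as did the smaller ratios of Clk1 intron 11 (−0.78) and Clk4 intron 6 (−1.65). Introns 4 and 7 of Clk2 (−0.64 and 0.11) and intron 3 of Clk3 (0.44) did not pass it in the authors' deposited table.

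The transcripts of Clk1 and Clk4 have GC contents of 40.9% and 43.3%, and the 0 h ratios moved with GC over the whole data set. Over 6436 genes with a matched transcript, the expected ratio had a Spearman correlation with the GC content of the spliced transcript of 0.33 (0.46 in the 1829 genes with at least 100 expected reads). The median was −0.09 in the tenth of genes with the lowest GC content (33.1% to 42.1%) and 0.15 in the tenth with the highest (57.9% to 67.3%). For observed relative to expected the correlation was −0.02. For the 3408 detained introns with a GC value, the log2 ratio of the authors' deposited table at 2 h had a correlation of 0.02, and the expected ratio at 0 h one of 0.46. These are unlike measures, since the first is of an intron's own reads and the second is nearly shared by a gene's introns. Over the 6436 genes, the observed ratio at 0 h had a correlation of 0.27. Genes share libraries and depth, so these correlations are descriptions of the 2 groups. The part of GC content in the ratios of single genes was not tested.

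**Figure D4:**
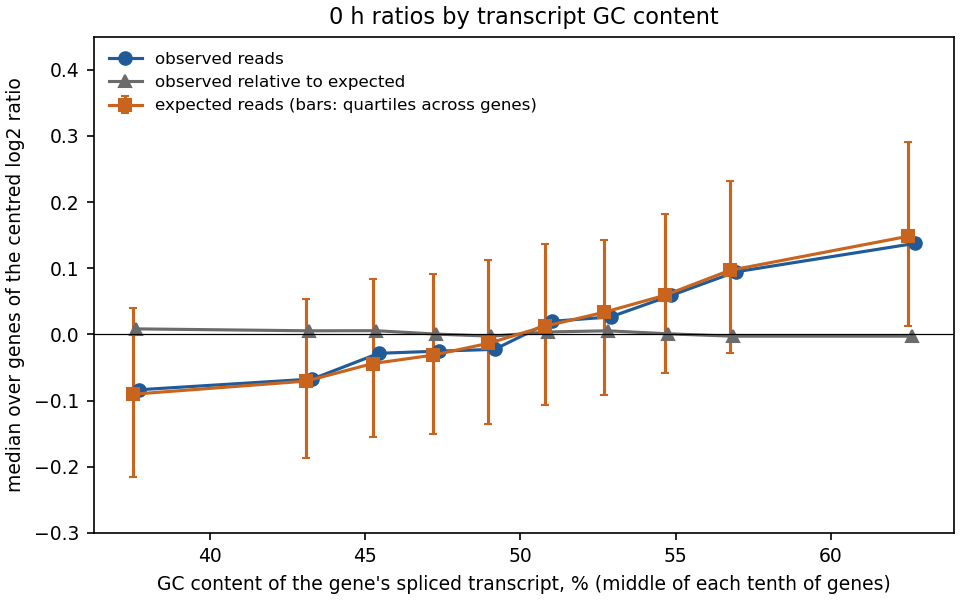
Median over genes of the centred log2 ratio of KH-CB19 to DMSO at 0 h, in 10 classes of genes by GC content of the spliced transcript; bars on the expected ratio are quartiles across genes. The expected ratio climbs from −0.09 to 0.15 from low to high GC content, the observed ratio goes with it, and observed relative to expected stays near 0.

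The genes of RNA processing were described as lists, each beside the median of 0 and the shares past 2-fold over all introns. Of 174 introns in 38 genes of SR and SR-related splicing proteins, 107 were below and 65 above the median of all introns, and the list median was −0.11. With centring by transcript GC it was −0.08. Among the 93 introns of the list with at least 50 reads it was −0.15, against −0.03 for all introns of that depth. Over the whole list, 1 intron was at least 2-fold below, intron 11 of Bclaf1 with 46.5 and 18.5 reads (−1.01), and above were 0. The 3 deepest were intron 3 of Arglu1 (1799.5 and 1261 reads, −0.19), intron 17 of Srrm2 (1647 and 1212, −0.12) and intron 4 of Srsf11 (1366.5 and 930, −0.23). In Srsf7, whose introns 6 and 8 are detained, the 4 introns had ratios of −0.38, −0.77, −0.22 and −0.58, with an expected ratio near −0.38. The relative median of the whole list was 0.01.

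The 138 introns of hnRNP and FET proteins, which bind nascent RNA and often act against SR proteins, had a median of −0.15 (−0.11 with centring by GC). At least 2-fold above were 4 introns, among them introns 35 and 49 of Taf15 and intron 12 of Pcbp2 (71 and 117 reads, 1.04). Intron 2 of Hnrnpc, in the 5′ UTR, was below with 52.5 and 17 reads (−1.30, counting interval −1.91 to −0.73). In the relative measure 8 introns were at least 2-fold below, 7 of them in Taf15. The deepest introns of the list, intron 14 of Ewsr1 (2601 and 1825.5 reads) and intron 7 of Hnrnph1 (2167.5 and 1275.5), had ratios of −0.19 and −0.44.

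Other RNA processing lists were slightly closer to the median, but this depended on the setting. With centring by transcript GC, cleavage, polyadenylation and Integrator genes had −0.09 and SR proteins −0.08. With at least 50 reads, cleavage, polyadenylation and Integrator genes had −0.14. At that depth CLK, SRPK and DYRK kinases had −0.14 and SR proteins −0.15. The medians that follow are over all introns of each list. The 277 introns of the core spliceosome had a median of −0.08, with 2 above 2-fold (intron 2 of Ddx5 and intron 7 of Ddx46) and 0 below. Cleavage, polyadenylation and Integrator genes had −0.10 over 100 introns, with intron 2 of Pabpn1, a poly(A)-binding protein, 2-fold above (90 and 144 reads). Genes of nonsense-mediated decay and RNA surveillance had −0.00 over 109 introns, with intron 7 of Upf1, the central helicase of that pathway, above (35 and 64 reads, 1.19). The 35 introns of CLK, SRPK and DYRK kinases had −0.10 and 0 past 2-fold in either direction. Clk1 and Clk4 hold 13 of these 35 introns, and with genes as units the list median was 0.07, so its sign turned.

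Outside RNA processing the medians lay between −0.20 and 0.06. Ribosomal protein genes had 0.01 over 204 introns, with 3 above 2-fold (intron 2 of Rps19, Rps21 and Rpl36) and 1 below (intron 21 of Rpl4). Their deepest intron, intron 7 of Rps15, had 3023.5 and 3946 reads (0.71). Translation factors had −0.07 over 183 introns, with 0 above and 3 below, introns 9 and 18 of Eef1a1 and intron 9 of Eef2. Intron 23 of Eif3a went the other way with 1170 and 1510.5 reads (0.69).

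Genes of the stem cell state were little different. The pluripotency network had −0.02 over 86 introns, with intron 7 of Tdgf1, a Nodal co-receptor, 2-fold below (63 and 24.5 reads, −1.04), and embryonic stem cell markers had −0.07 over 33 introns. Polycomb and chromatin regulators had 0.00 over 317 introns with 1 below (intron 25 of Atrx). Markers of germ layers and trophoblast had 0.06 over 8 introns and fibroblast markers −0.19 over 15, with 0 past 2-fold in both lists.

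Growth, stress and transport genes completed the lists. Cell cycle and chromosome structure had −0.07 over 314 introns and the DNA damage response and p53 pathway −0.02 over 237, both with 0 past 2-fold. Heat shock chaperones had −0.07 over 150 introns, with intron 10 of Tcp1 below, and their deepest intron, intron 21 of Hsp90ab1, had 13391.5 and 15429 reads (0.53). The few introns of immediate-early genes that were measured, 5 in 4 genes, had a median of −0.20, Myc intron 3 among them with 34 and 23.5 reads (−0.21). Nuclear pore and transport genes had −0.05 over 235 introns with 2 above (intron 21 of Nup155 and intron 24 of Xpo5). Mitochondrial and glycolytic enzymes had −0.01 over 138 with 1 above (intron 8 of Atp5a1, 191.5 and 311 reads). The 19 introns of O-GlcNAc cycling had −0.15, and the detained intron 6 of Ogt, the O-GlcNAc transferase, had 623.5 and 511 reads (0.03, −0.09 to 0.16).

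**Figure D5:**
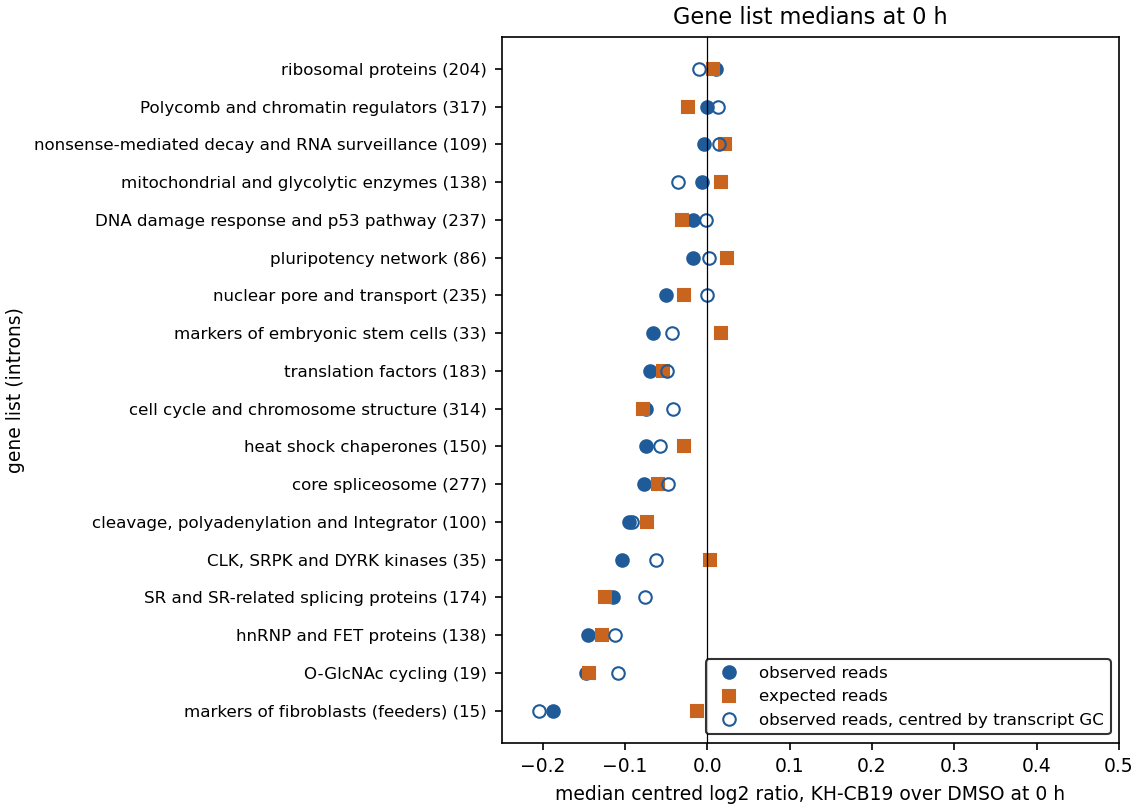
Median centred log2 ratio of KH-CB19 to DMSO at 0 h over the introns of each gene list with at least 15 introns, for observed reads, expected reads and observed reads centred by transcript GC; the number of introns stands beside each name. Medians of observed reads run from −0.19 (15 introns of fibroblast markers) to 0.01 (ribosomal proteins), with SR and hnRNP proteins at −0.11 and −0.15.

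Introns that differed most were often short. Of 715 introns up to 200 bp, 2.52% were past 2-fold in observed reads, against 0.13% of 1553 introns over 10000 bp. With at least 50 reads, 12 of 177 introns up to 200 bp were past 2-fold (6.78%), 7 above and 5 below, and the SD was 0.49. At that depth 0 of 1712 introns of 2000 to 5000 bp were, with an SD of 0.21. Introns whose length equalled no annotated intron of their gene, such as intron 49 of Taf15 and intron 9 of Eef1a1, made up 24 of the 75 past 2-fold (32%) and 1363 of 17995 members with a matched gene (7.57%). With at least 50 reads, 12 of 712 such introns were 2-fold above and 6 below (2.53%), against 5 and 2 of 4283 of an annotated length (0.163%). Also of no annotated length were intron 6 of Hirip3, intron 2 of Ddx5, Chchd10 and Rps21, and introns 2 and 7 of Ncl. So were intron 8 of Nucks1, 15 of Ppp1ca, 21 of Rpl4, 7 of C1qbp, 9 of Eef2 and all those of Eef1a1. Intron 35 of Taf15 and intron 2 of Hyou1, Timm13 and Rpl36 had an annotated length. The part of unmatched lengths in the result was not tested.

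Within each group the authors had compared observed with expected reads. In the authors' deposited table, 5878 introns in DMSO (32.5%) and 5135 in KH-CB19 (28.4%) were above expectation at an adjusted p below 0.05, and 4718 were so in both. These are 80.3% of the DMSO list and 91.9% of the KH-CB19 list. Below expectation in the authors' deposited table were 1827 in DMSO (10.1%) and 1610 in KH-CB19 (8.9%), with 1485 in both (81.3% and 92.2%). No intron was called above in 1 group and below in the other. A call in 1 group alone does not show that the groups differ, and the KH-CB19 means held fewer reads.

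In their median, detained introns were near the rest at 0 h. Their median observed ratio was −0.04 and that of the other introns 0.01. Past 2-fold were 16 above and 7 below among 3422 (0.672%), and 36 and 16 among 14658 (0.355%). With at least 50 reads the shares were 0.589% and 0.428%. Detained introns were deeper, with a median of 65.4 reads against 23.8. The same detained introns spread more widely at 2 h: from the 2 h means of the authors' deposited table, the centred log2 ratio had an SD of 0.60, against 0.30 for observed reads at 0 h. At least 2-fold above and below were 155 and 154 at 2 h. This difference in spread was not tested, and the 0 h means are unscaled counts while the 2 h means are normalised.

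The introns called at 2 h were then read at 0 h. In the authors' deposited table, 189 of the 3422 (5.52%) were higher at 2 h at an adjusted p below 0.05, and 144 (4.21%) were lower. The 0 h median of observed reads was −0.08 for the 189 and −0.11 for the 144, with 0 past 2-fold in both sets, and the share among all detained introns was only 0.672%. In observed relative to expected, intron 12 of Taf15, called higher at 2 h in the authors' deposited table, was 2-fold below at 0 h (−1.02). Its observed ratio at 0 h was only −0.28, and the expected ratio of 0.74 made up most of the measure. Of the 144, 104 were below the 0 h median (72.2%), against 57.0% of all 3422. The median transcript GC content was 45.9% for the 144 and 49.4% for all 3422, and its part in that share was not tested. The 144 also include several introns each of Clk1, Clk4 and Srsf7, so they are not 144 separate genes. The expected ratio of the 144 was −0.09 and the relative ratio −0.02. Across the 3422 introns the Spearman correlation of the 2 h ratio with the 0 h observed ratio was 0.01 and with the relative ratio −0.02. The 0 h and 2 h comparisons share no library.

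Conversely, 0 of the 23 detained introns past 2-fold at 0 h were called at 2 h in the authors' deposited table, where 333 of all 3422 were (9.73%). Of the 16 above at 0 h, 9 had a 2 h log2 ratio above 0 in the authors' deposited table, as had 49.9% of all detained introns. Of the 7 below, 2 had one below 0 in the authors' deposited table, against 50.1% of all. With so few introns, no direction is read from these counts. For intron 49 of Taf15 the authors' deposited table gave 853 and 1383 normalised reads at 2 h in DMSO and KH-CB19 (log2 ratio 0.70, adjusted p = 0.107). For intron 2 of Ddx5 the authors' deposited table had 492 and 474 (−0.05, adjusted p = 0.949), and for intron 6 of Hirip3 185 and 238 (0.37, adjusted p = 0.711). None of the 3 passed the authors' threshold at 2 h.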

How the data were processed

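Libraries were made from polyadenylated RNA with a stranded kit. The submitters' processing notes name mouse build mm9, DESeq, Cufflinks 2.1.1 and TopHat2 2.0.9, with bedtools 2.17.0, Bowtie 1.0.0 and SAMtools 0.1.19. How introns were defined and expected reads made is not given in the sources used here.

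Per the file headers, the authors deposited per intron a mean of observed and of expected reads for each 0 h group, the log2 ratio of the 2, an adjusted p-value, and, for detained introns, normalised means (a signal) at 2 h with their log2 ratio and adjusted p-value. All 0 h means are multiples of 0.5, as the mean of 2 unscaled counts is, and a word stands for low coverage in the deposited columns. From these, log2 ratios of KH-CB19 to DMSO were computed with no pseudocount and centred on their medians (Python 3.11.15, pandas 2.3.3, NumPy 2.4.6, SciPy 1.17.1), after a check on simulated data. With 1 mean a group no test between groups was made, and a 2-fold distance stands in for one. Counting intervals are exact (Clopper-Pearson, 95%) on the summed counts of 2 libraries and cover counting error only. Transcript GC content came from GENCODE transcripts of a later mouse build, matched by symbol (5944) or a unique synonym (492) for 6436 of 6476 genes, and places in genes by symbol, strand and intron length.

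The members and the 20 gene lists were chosen with earlier results of these data known. The rule for named introns took the 10 highest and 10 lowest introns in observed reads and in the relative measure (mean of at least 50 observed and 10 expected reads, 1 per gene), the 5 highest and 5 lowest in expected reads, the 4 genes of at least 4 introns with the highest and lowest medians, all Clk introns, the 3 deepest genes of a list, and list introns past 2-fold; of the deepest, some are given, and 1 intron past 2-fold is not reported here. Other introns of Taf15, Ncl, Eef1a1, Hirip3, Ddx5, Srsf7 and Ppp1ca, and those in the closing section, were chosen after their values were seen. Alternatives were other pseudocounts, read minimums, centrings, thresholds and units.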

Additional observations from a re-analysis of the deposited data

How the results depend on the processing

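No named intron past 2-fold had the opposite sign under any alternative that was run, but counts past 2-fold moved. A pseudocount of 10 left 8 introns above and 7 below for observed reads, 1 and 5 for expected reads, and 2 and 7 for observed relative to expected; a pseudocount of 1 left 15 below for observed reads and 19 above in the relative measure. Among the 2495 introns with means of at least 50 observed and expected reads the counts were 10 and 2 for observed reads, 4 above for expected reads, and 2 and 5 for the relative measure. With the 6476 genes as units they were 6 and 0, 5 above, and 1 and 1. With expected means of at least 10 (13688 introns), 19 were above in the relative measure. At 1.5-fold the counts were 801 and 508, 161 and 62, and 493 and 353; at 3-fold they were 1 and 0, 0 above, and 0 and 1. Of alternatives chosen after the data were seen, leaving out genes with 1 member left 5 above for expected reads, and leaving out introns of no annotated length left 4 above for expected reads. Centring on summed reads, within depth bins or by transcript GC kept every count within 1.5 times, as did the 0.01 threshold for the authors' calls. Of 198 named ratios, a pseudocount of 10 moved 22 out of their counting interval, centring within depth bins 17 and centring by GC 8. Of the medians of 20 lists in 3 measures, centring by GC moved 7 out of a 95% order-statistic interval across introns, a minimum of 50 reads 3 and genes as units 2.

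Leaving out a replicate was not run. No paired analysis was possible because the file holds 1 mean for the 2 libraries of a group, so whether 1 library decides a ratio, such as that of Taf15 or Eef1a1, is not known. Below 20 reads, counting error alone gives an SD of 0.38 on the log2 scale, so single ratios there are imprecise.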

Other observations

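Introns past 2-fold in observed reads that belong to no gene list used here were mostly under 50 reads, and those named here were chosen after their values were seen. The deepest not given above was intron 2 of Znhit6, a factor of small nucleolar RNP assembly (432 bp, between coding exons, detained), with 217 reads in DMSO and 356 in KH-CB19 at 0 h, a log2 ratio of 1.04 (95% counting interval 0.86 to 1.21). Intron 10 of the same gene had 25 and 14 reads (−0.51, −1.24 to 0.18). In Setd1a, a histone H3 methyltransferase, the 5′ UTR intron 2 had 32 and 54.5 reads (1.09, 0.63 to 1.56). Intron 6 of Setd1a had 19.5 and 12 (−0.38, −1.18 to 0.39). The counting intervals of intron 10 of Znhit6 and intron 6 of Setd1a include the median. Znhit6 has 5 measured introns, and only introns 2 and 10 are given here. Intron 7 of Qk, an RNA-binding splicing regulator, had 12.5 and 24.5 reads and the highest observed relative to expected ratio of all introns, 1.54. At the low end, intron 9 of 2400003C14Rik (218 bp, detained) had 57 and 17.5 reads, −1.38 (−1.97 to −0.82), and intron 14 of Nolc1, a nucleolar chaperone of small nucleolar RNPs, had 45.5 and 17 reads, −1.10 (−1.71 to −0.52).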
